A study of Mus musculus with 6 samples.

Results

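The genes described here are 10 members of the interleukin-1 (IL-1) family in mouse bone marrow-derived macrophages (BMDMs). They comprise the ligands Il1a, Il1b, Il18 and Il33, the soluble antagonists Il1rn and Il18bp, and the receptor chains Il1r1, Il1r2, Il1rap and Il1rl1. They were chosen by family membership, with earlier results of these data known, and 11 other listed genes of the family are described further below. Matching by Ensembl identifier to GENCODE M21 symbols gave 10 of the 55335 genes in the deposited count table. All 10 were among the 15687 genes tested, Il33 and Il1r2 only through the counts of their LPS libraries.

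Total RNA was sequenced in 6 libraries to compare macrophages given lipopolysaccharide (LPS), a bacterial cell wall component sensed through TLR4, with control macrophages given PBS. There were 3 LPS and 3 PBS libraries, all collected after 1 h. Both groups carried the C57BL/6 genotype, and the cells had been grown from femur and tibia marrow in medium conditioned by L929 cells, a source of the macrophage growth factor M-CSF. The mice were males 7 to 10 weeks of age. The LPS dose and the number of mice behind these libraries were not given in the sources used here. Nothing stated that the 3 libraries of a group came from separate animals, so p-values measure only the spread between these libraries.

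IL-1α and IL-1β are made as precursors and bind the same receptor, IL-1R1, which signals together with the accessory chain IL-1RAP through MyD88. Il1rn encodes the receptor antagonist, which occupies IL-1R1 without signalling, and Il1r2 encodes a decoy receptor that binds IL-1 but lacks a signalling domain. IL-18 is held back by the secreted IL-18 binding protein, and IL-33 acts through ST2, the product of Il1rl1, which also pairs with IL-1RAP. Macrophages stimulated through Toll-like receptors are a classical source of IL-1β.

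The libraries held between 37787611 and 41516330 counts. Macrophage markers were abundant, with summed levels of 30727 to 32058 normalized CPM in PBS libraries and 36935 to 37317 in LPS libraries. Most of this came from Lyz2, at a mean of 23272 in PBS and 24224 in LPS libraries. The sums cover 9 of 9 markers found, of which Cd14 rose. Normalized CPM are CPM (counts scaled to a common library total) after correction by edgeR's TMM factors, which averaged 1.15 in PBS and 0.869 in LPS libraries. Scaling by library size alone moved the median log2 fold change of all tested genes by -0.40, and upper quartile scaling moved it by -0.14. A gene was said to rise or fall where the adjusted p of edgeR's quasi-likelihood test was under 0.05 and the log2 fold change was beyond 1 in either direction. By these criteria 1653 genes rose and 1624 fell, against 1213 and 2964 with library size alone. Changes in bulk RNA cannot tell apart a change in the number of cells of a type from a change in RNA per cell.

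To show the sequence context of the transcripts described below, the 250 bases upstream of RefSeq transcription starts (assembly GRCm38.p6) are given for Il1a, Il1b and Il1rn, the members with the highest LPS levels per kb of exon, and for Il18 and Il18bp, a ligand and its antagonist that both stayed under the fold criterion. Capitals mark matches to 6 motifs searched on both strands, namely TATAAA (a core promoter element), a loose NF-kB form (GGG and CC with any 5 bases between them), TGANTCA (AP-1), TTNNGNAAT (C/EBP), GAGGAAG (PU.1) and TGACGTCA (CRE). The sequences read 5′ to 3′ on the coding strand and end at the base before the start. They lie at chr2:129309973-129310222 (minus strand) for Il1a, chr2:129371140-129371389 (minus strand) for Il1b, chr2:24345121-24345370 (plus strand) for the most downstream of 3 starts of Il1rn, chr9:50554450-50554699 (plus strand) for Il18 and chr7:102018233-102018482 (minus strand) for Il18bp.
Il1a: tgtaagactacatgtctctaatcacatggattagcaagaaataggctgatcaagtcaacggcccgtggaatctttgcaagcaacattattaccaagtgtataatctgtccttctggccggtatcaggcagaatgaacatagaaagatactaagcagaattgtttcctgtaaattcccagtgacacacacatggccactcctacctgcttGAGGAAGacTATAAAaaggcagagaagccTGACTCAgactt
Il1b: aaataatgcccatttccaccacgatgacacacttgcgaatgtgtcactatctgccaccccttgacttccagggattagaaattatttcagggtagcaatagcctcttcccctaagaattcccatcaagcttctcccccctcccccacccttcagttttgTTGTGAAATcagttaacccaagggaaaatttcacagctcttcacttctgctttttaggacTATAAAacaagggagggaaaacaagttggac
Il1rn: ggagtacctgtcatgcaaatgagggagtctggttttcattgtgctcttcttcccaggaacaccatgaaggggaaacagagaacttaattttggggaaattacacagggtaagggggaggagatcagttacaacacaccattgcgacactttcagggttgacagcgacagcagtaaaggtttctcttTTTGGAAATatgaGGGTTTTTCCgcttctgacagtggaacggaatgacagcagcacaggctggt
Il18: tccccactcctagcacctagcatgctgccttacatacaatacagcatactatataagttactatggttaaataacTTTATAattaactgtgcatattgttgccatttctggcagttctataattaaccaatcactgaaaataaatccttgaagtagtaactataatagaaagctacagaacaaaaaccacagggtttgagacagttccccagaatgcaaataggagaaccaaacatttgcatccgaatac
Il18bp: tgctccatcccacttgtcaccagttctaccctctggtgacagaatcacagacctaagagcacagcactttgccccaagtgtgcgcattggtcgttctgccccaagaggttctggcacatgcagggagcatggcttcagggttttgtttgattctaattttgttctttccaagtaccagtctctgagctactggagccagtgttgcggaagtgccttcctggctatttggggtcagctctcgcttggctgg

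In the Il1a promoter a TATAAA lay 32 to 27 bases upstream of the start, with the PU.1 form 41 to 35 bases and an AP-1 match at 12 to 6 bases. In the Il1b promoter a TATAAA lay at 31 to 26 bases and a C/EBP match at 91 to 83 bases. The Il1rn start shown had no TATAAA, a match to the NF-kB form at 51 to 42 bases and a C/EBP match at 64 to 56 bases. The first Il1rn start, which is not printed, had an NF-kB match at 54 to 45 bases and an AP-1 match at 141 to 135 bases. The second Il1rn start, also not printed, held none of the 6 motifs, and its window overlaps that of the start shown. The Il18 window held a TATAAA only on the other strand, 175 to 170 bases upstream, and the Il18bp window held none of the 6 motifs. No matches overlapped in the windows printed.

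All 10 members were found among the RefSeq promoters, with 15 starts between them. TATAAA was present at 5 of these 15 starts (33.3%), which belong to Il1a, Il1b, Il18 and Il33, against 12.3% of 32536 promoters in the table. Both starts of Il33 held it, at 203 to 198 and at 29 to 24 bases upstream. Any position and strand in the window counted, as with the Il18 match. Starts of the same gene are not independent. The C/EBP form was present at 5 starts (33.3%) against 10.2% of promoters, and the AP-1 form at 2 starts (13.3%) against 6.73%. The loose NF-kB form was present at 4 starts (26.7%) against 46.0% of promoters, GAGGAAG at 1 start (6.67%) against 10.7%, and TGACGTCA at 0 starts against 1.56%. A match describes letters in this window and does not show that a factor binds there. The gene counts do not separate transcripts from different starts.

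Of the 10 members, 6 rose after 1 h of LPS, 0 fell and 4 stayed under the criteria. Over all tested genes, 10.5% rose and 10.4% fell. The members were chosen with earlier results of these data known, so their share describes this list and not the family. The members that rose were Il1a, Il1b, Il33, Il1rn, Il1r1 and Il1r2. Of these, Il33 and Il1r2 were tested only because of their LPS counts, so they could enter the counts given here only as rises. At an adjusted p under 0.05 with no limit on the fold, 8 members were higher in LPS libraries and 0 lower, against 32.9% and 34.9% of all tested genes. With library size alone these counts were 7 and 2, and 6 rose. The LPS libraries lay above the PBS libraries without overlap for the same 8 members and lay below them for 0, against 33.9% and 36.6% of all tested genes. The median log2 fold change of the members was 4.23, also with Il33 set to its lower bound, and that of all tested genes was -0.01.

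**Figure D1:**
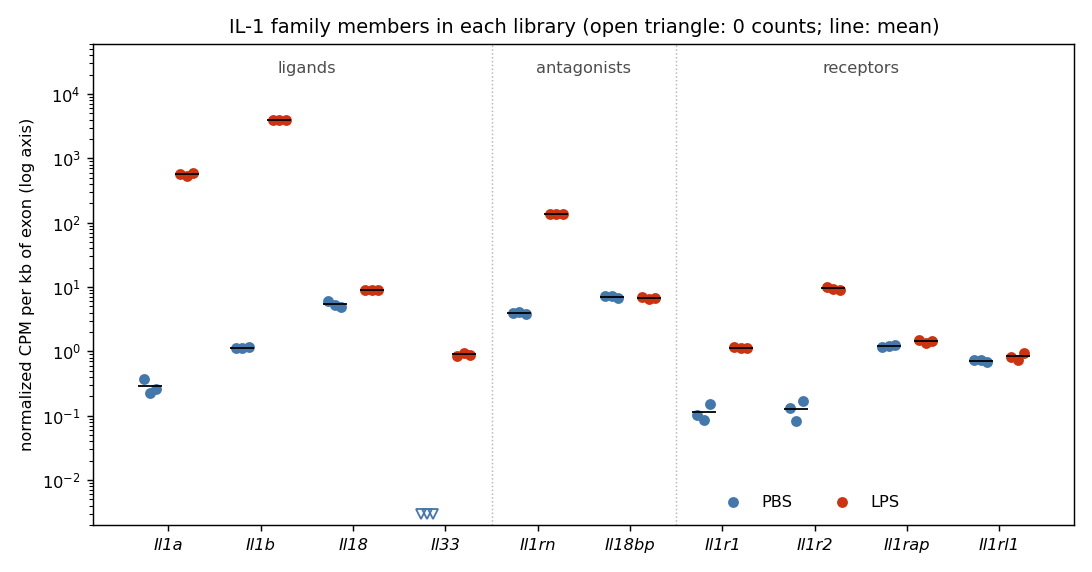
Level of each IL-1 family member in each library, as normalized CPM per kb of exon on a log axis, with blue points for PBS, red points for LPS, black lines for the mean of 3 libraries and open triangles for 0 counts. Il1b reached 3993 in LPS libraries from 1.14 in PBS libraries, Il33 was at 0 counts in all 3 PBS libraries, and the points of Il18bp and Il1rl1 overlapped between groups.

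Il1b had the highest level per kb among the members after LPS. This gene, at chr2:129364570-129371139 on the minus strand of GRCm38, had 102, 97 and 104 counts in the PBS libraries and 256048, 246750 and 260493 counts in the LPS libraries. The groups were far apart, and the spread within each was small. Its normalized CPM went from 2.18 ± 0.0632 to 7615 ± 48.8 (SD, n = 3 each), a rise of 3491-fold. Its transcripts made up 0.664%, 0.653% and 0.667% of all counts in the LPS libraries. Ranked by level per kb of exon among the 15687 tested genes, Il1b moved from place 10768 in PBS to place 10 in LPS libraries. Among the 12137 genes that averaged 50 counts or more, its log2 fold change of 11.77 (SE 0.05, adjusted p = 3.06e-27, edgeR's quasi-likelihood test) lay next below that of Ptgs2 (12.11), which encodes the inducible cyclooxygenase. The cytokine gene Il6 came next in this order, but it had 1, 2 and 4 counts in PBS libraries, a mean under the floor of 3 counts, so its fitted change is not given.

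Il1a, the neighbour of Il1b at chr2:129299610-129309972 on the same strand, had 35, 20 and 24 counts in PBS libraries and 38378, 34482 and 40140 counts in LPS libraries. Every LPS library exceeded every PBS library. The level rose from 0.566 ± 0.151 to 1126 ± 63.2 normalized CPM (SD, n = 3 each), which is 1990-fold (log2 fold change 10.94, SE 0.08, adjusted p = 6.28e-24 from edgeR's quasi-likelihood F test). The spread between libraries was wider for Il1a than for Il1b, and the log2 ratios within the 3 same-numbered pairs, which the labels call batches, were 10.60, 11.22 and 11.15 for Il1a and 11.80, 11.78 and 11.73 for Il1b. Per kb of exon, Il1a moved from place 13568 to place 77 of the tested genes.

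Il33, an alarmin of barrier and stromal cells, at chr19:29925114-29960718 on the plus strand, had 0 counts in each of the 3 PBS libraries and 83, 88 and 87 counts in the LPS libraries. It thus was detected in LPS libraries only, where its level was 2.58 ± 0.113 normalized CPM (SD, n = 3). A floor of 3 counts in each PBS library corresponds to a mean of 0.0648 normalized CPM, so Il33 was at least 39.7-fold higher in LPS libraries. This floor covers counting error only. Il33 passed the filter on counts through its LPS libraries only, so its adjusted p (2.73e-11, edgeR's quasi-likelihood test) adds no support. Its level after LPS, 0.892 normalized CPM per kb of exon, remained far below the 571 of Il1a. The list of 8 fibroblast and endothelial markers summed to between 17.4 and 18.8 normalized CPM in PBS and between 23.2 and 26.7 in LPS libraries. Of the 8, 2 (Cdh5 and Pdgfrb) rose (1 with library size alone), beside 10.5% of all tested genes, and none was at 0. The part of such cells in the Il33 counts was not tested.

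Il18, at chr9:50554827-50581840 on the plus strand, was the ligand that stayed under the fold criterion. Its counts were 300, 241 and 229 in PBS and 315, 302 and 318 in LPS libraries. In normalized CPM the groups did not overlap, at 5.53 ± 0.690 in PBS and 9.33 ± 0.0683 in LPS libraries (SD, n = 3 each). The log2 fold change of 0.75 (SE 0.09, adjusted p = 1.34e-06, edgeR's quasi-likelihood test) passed the p threshold but not the fold criterion, and it was 0.35 (adjusted p = 0.00259) with library size alone. The log2 ratios of the same-numbered pairs were 0.58, 0.79 and 0.91. In PBS libraries Il18 was the most abundant of the 4 ligands, at 5.37 normalized CPM per kb of exon, above Il1b at 1.14 and Il1a at 0.287. The opposite-strand genes Bco2 and Tex12 overlap the span of Il18 but share 0 exonic bases with it. Bco2 had 61, 60 and 59 counts in PBS and 65, 66 and 82 in LPS libraries. Tex12 had 0 counts in each PBS library and 10, 16 and 9 in LPS libraries.

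The antagonist Il1rn rose together with the ligands that it opposes, by a smaller factor. Located at chr2:24336853-24351494 on the plus strand, it had 1034, 1005 and 976 counts in PBS and 25724, 24318 and 25900 counts in LPS libraries. The groups were fully separate, and PBS macrophages already held more Il1rn than Il1a or Il1b per kb of exon. The level went from 21.7 ± 0.546 to 758 ± 11.1 normalized CPM (SD, n = 3 each), a 34.9-fold rise (log2 fold change 5.13, SE 0.04, adjusted p = 6.55e-24 from edgeR's quasi-likelihood F test). Within same-numbered pairs the log2 ratios were 5.14, 5.07 and 5.17. Per kb of exon it moved from place 7115 to place 345 of the tested genes.

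Il18bp, at chr7:102014885-102018690 on the minus strand, had 1047, 984 and 931 counts in PBS and 710, 635 and 696 counts in LPS libraries. After scaling, the groups overlapped, at 21.3 ± 0.991 and 20.4 ± 0.855 normalized CPM (SD, n = 3 each). The log2 fold change was -0.07 (SE 0.06, 95% interval -0.19 to 0.05, adjusted p = 0.311, edgeR's quasi-likelihood test). With library size alone it was -0.47 (adjusted p = 7.19e-07), close to the shift of all tested genes under that scaling, and with upper quartile scaling -0.21 (adjusted p = 0.00319). The same-numbered pairs had log2 ratios on both sides of 0, at -0.06, -0.16 and 0.02. Of its 3026 exonic bases, 80 are shared with the opposite-strand gene Numa1, which had 9310 to 9548 counts in PBS libraries, so its counts are uncertain where the strand setting of the counting is not given.

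Among the receptor chains, the decoy Il1r2 rose most. Its gene, at chr1:40074079-40125231 on the plus strand, had 12, 7 and 15 counts in PBS and 650, 587 and 591 counts in LPS libraries. Low in every PBS library and high in every LPS library, it went from 0.244 ± 0.0854 to 18.2 ± 1.03 normalized CPM (SD, n = 3 each), which is 74.7-fold (log2 fold change 6.20, SE 0.14, adjusted p = 3.87e-17 from edgeR's quasi-likelihood F test). Il1r2 passed the filter on counts through its LPS libraries only, so this p adds no support. The log2 ratios within same-numbered pairs were 6.26, 6.86 and 5.74. IL-1R2 is also abundant in neutrophils. The list of 10 neutrophil markers summed to between 148 and 152 normalized CPM in PBS and between 177 and 179 in LPS libraries, most of it from Csf3r, and 0 of the 9 tested markers rose by the criteria. The defining marker Ly6g had 0 or 1 counts in PBS libraries and between 0 and 3 counts in LPS libraries. The part of neutrophils in the Il1r2 counts was not tested.

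The signalling receptor Il1r1, at chr1:40225080-40317257 on the plus strand, had 31, 25 and 44 counts in PBS and 250, 234 and 242 counts in LPS libraries. Here too the groups were separate. The level rose 10.1-fold, from 0.719 ± 0.209 to 7.24 ± 0.181 normalized CPM (SD, n = 3 each), with a log2 fold change of 3.33 (SE 0.15, adjusted p = 7.67e-13, edgeR's quasi-likelihood test). Pair by pair the log2 ratios were 3.52, 3.70 and 2.90. Per kb of exon, Il1r1 and Il1r2 could not be ordered in PBS libraries, where their libraries overlapped (0.113 and 0.128). In LPS libraries they were apart, at 1.14 for Il1r1 and 9.56 for Il1r2.

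The accessory chain Il1rap, at chr16:26581704-26730117 on the plus strand, had 641, 627 and 652 counts in PBS and 579, 504 and 559 counts in LPS libraries. After TMM scaling the LPS libraries were slightly higher, at 16.4 ± 0.907 against 13.8 ± 0.338 normalized CPM (SD, n = 3 each), without overlap. The log2 fold change was 0.24 (SE 0.06, adjusted p = 0.00234, edgeR's quasi-likelihood test), but the direction depends on the scaling, since it was 0.10 (adjusted p = 0.16) with upper quartile scaling and -0.16 (adjusted p = 0.0291) with library size alone. Its log2 ratios in the same-numbered pairs were 0.36, 0.15 and 0.22. Of its 11360 exonic bases, 552 are shared with the antisense gene Gm20319, which had at most 1 count in any library.

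Il1rl1, which encodes ST2, lies at chr1:40429570-40465415 on the plus strand and had 242, 228 and 218 counts in PBS and 192, 163 and 222 counts in LPS libraries. The groups overlapped, at 4.95 ± 0.197 and 5.75 ± 0.765 normalized CPM (SD, n = 3 each). The log2 fold change was 0.22 (SE 0.10, 95% interval -0.0048 to 0.44, adjusted p = 0.0773, edgeR's quasi-likelihood test). Without LPS replicate 2, its lowest LPS library, it was 0.31 (adjusted p = 0.0192), and with library size alone -0.19 (adjusted p = 0.11). In the same-numbered pairs the log2 ratios were 0.17, -0.02 and 0.47. ST2 is also a mark of mast cells. Of the 8 mast cell and basophil markers, Mcpt4 and Tpsb2 were at 0 in all 6 libraries. Of the 5 tested, 1 (Gata2, tested only through its LPS libraries) rose, beside 10.5% of all tested genes. At an adjusted p under 0.05 alone, 4 of the 5 were higher and 0 lower, beside 32.9% and 34.9% of all tested genes. With library size alone 2 were higher. The median log2 fold change of the 5 was 0.90. The list summed to between 6.09 and 7.30 normalized CPM in PBS and between 16.8 and 17.7 in LPS libraries. Their part in the Il1rl1 counts was not tested.

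**Figure D2:**
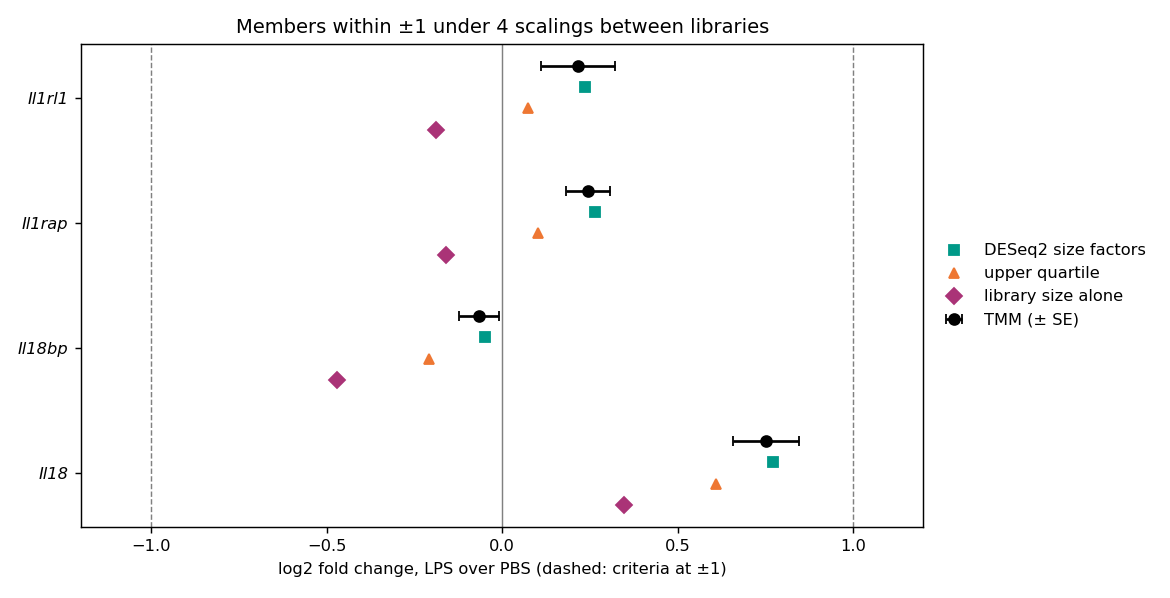
Log2 fold change of LPS over PBS for the 4 members under the fold criterion, with 4 ways of scaling the libraries (black circle with SE for TMM, other symbols for the alternatives) and dashed lines at the fold criterion. Il18 stayed above 0 under each scaling, from 0.35 to 0.77, Il18bp stayed below 0, and Il1rap and Il1rl1 crossed 0 with library size alone, at -0.16 and -0.19.

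The order of the members by level per kb of exon differed between the conditions. In PBS libraries it was Il18bp (7.04), Il18 (5.37), Il1rn (3.92), Il1rap (1.22), Il1b (1.14), Il1rl1 (0.718), Il1a (0.287), Il1r2 (0.128), Il1r1 (0.113) and Il33 (0), in normalized CPM per kb. Among these, only the neighbours Il1r2 and Il1r1 overlapped in their libraries. In LPS libraries the order was Il1b (3993), Il1a (571), Il1rn (137), Il1r2 (9.56), Il18 (9.05), Il18bp (6.73), Il1rap (1.44), Il1r1 (1.14), Il33 (0.892) and Il1rl1 (0.833). There the neighbours Il1r2 and Il18 overlapped, as did Il33 and Il1rl1. The IL-18 pair, at the head of the order in PBS libraries, thus stood below both IL-1 ligands and the antagonist Il1rn in LPS libraries.

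Ratios between members within a library do not depend on scaling between libraries. Counts per kb of exon of Il1b to Il1rn, agonist to antagonist, stood at 0.286, 0.280 and 0.309 in PBS libraries and at 28.9, 29.5 and 29.2 in LPS libraries. The antagonist transcript was thus in excess in every PBS library, and the agonist in every LPS library. The geometric mean of this ratio was 0.292 in PBS and 29.2 in LPS libraries, a log2 difference of 6.64. For Il1a to Il1rn the ratio was 0.0949, 0.0558 and 0.0690 in PBS and 4.18, 3.98 and 4.35 in LPS libraries, a log2 difference of 5.86. With the longest annotated transcript in place of all exons, the levels of these ratios were lower, at 0.189 and 18.9 for Il1b to Il1rn and 0.0330 and 1.92 for Il1a to Il1rn, with the same differences.

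Il1a was the less abundant of the IL-1 ligands in all libraries. Its ratio to Il1b was 0.331, 0.199 and 0.223 in PBS and 0.145, 0.135 and 0.149 in LPS libraries, a 1.72-fold decrease of the geometric mean (log2 difference -0.78). The Il18 to Il18bp ratio was 0.841, 0.719 and 0.722 in PBS libraries and 1.30, 1.40 and 1.34 in LPS libraries, a log2 difference of 0.83. This pair thus went from an excess of the binding protein transcript to an excess of the cytokine transcript, per kb. The Il1r1 to Il1r2 ratio was 0.775, 1.07 and 0.880 in PBS and 0.115, 0.120 and 0.123 in LPS libraries, a 7.55-fold decrease (log2 difference -2.92). For each of these 5 ratios the LPS and PBS libraries did not overlap. An exact two-sided permutation test over libraries gave p = 0.1 for each (0.1 after Benjamini-Hochberg adjustment over the 5), which is the smallest p that 3 libraries against 3 allow, so no p under 0.05 could be reached.

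**Figure D3:**
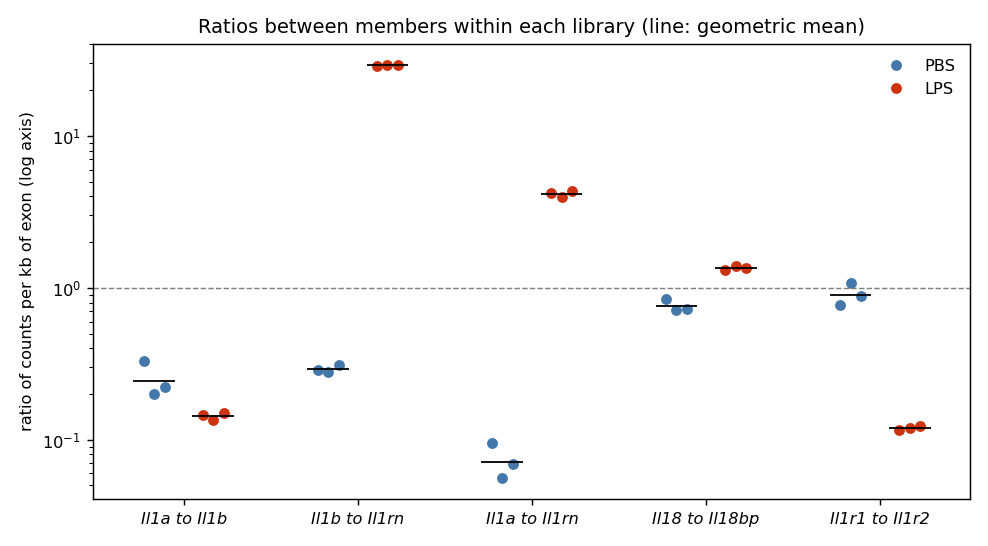
Ratio of counts per kb of exon between pairs of members in each library, on a log axis, with blue points for PBS, red points for LPS, black lines for geometric means of 3 libraries and a dashed line at equal levels. Il1b to Il1rn moved from 0.292 to 29.2 and Il18 to Il18bp from 0.759 to 1.35, both crossing the dashed line, while Il1r1 to Il1r2 moved from 0.900 to 0.119.

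Il1r2, Il1r1 and Il1rl1 lie in a receptor gene cluster on chromosome 1, together with Il1rl2 (the IL-36 receptor), Il18r1 and Il18rap (the chains of the IL-18 receptor). In this order along the chromosome, the log2 fold changes were 6.20 for Il1r2 and 3.33 for Il1r1 at 151 kb from the start of Il1r2. They were 1.36 for Il1rl2 at 251 kb and 0.22 for Il1rl1 at 355 kb. Il18r1 at 391 kb had 0.00, and Il18rap at 441 kb had 0.19. The values were thus lower with distance from Il1r2 over the first 4 genes, a description of 1 cluster with no test. The genes past the criteria were the first 3.

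**Figure D4:**
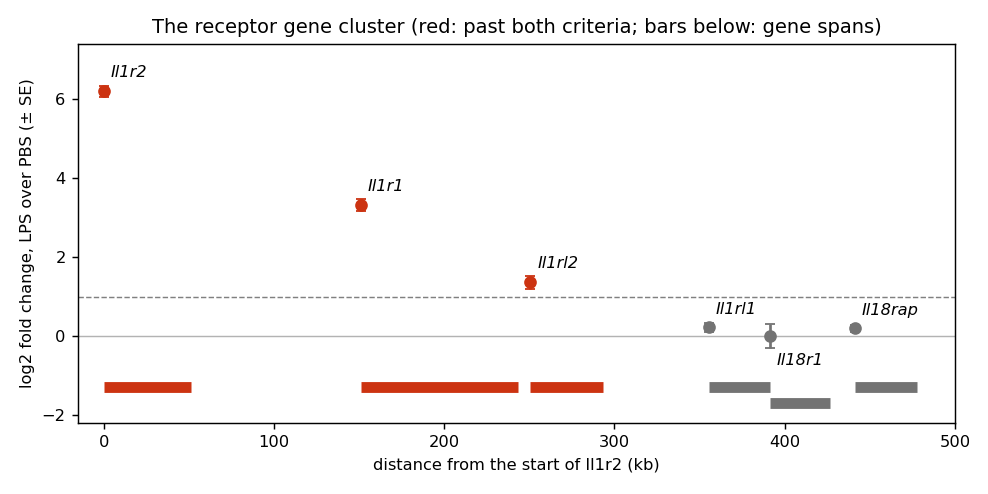
Log2 fold change (points, with SE) of the 6 protein-coding receptor genes of the chromosome 1 cluster against distance in kb from the start of Il1r2, with red for genes past both criteria, bars for the gene spans and a dashed line at a log2 fold change of 1. The values go from 6.20 at Il1r2 through 3.33 and 1.36 to between 0.00 and 0.22 in the last 3 genes.

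Entries annotated as unclassified transcripts inside the receptor genes also had higher counts in LPS libraries. Gm38070, on the strand of Il1r1 and within its span but sharing 0 exonic bases with it, had 8, 1 and 1 counts in PBS and 236, 253 and 225 counts in LPS libraries (log2 fold change 6.57, SE 0.26, adjusted p = 1.66e-13 from edgeR's quasi-likelihood F test). The size of this change rests on PBS replicate 1, since the fitted value was 8.14 without it, with the other PBS libraries at 1 count each. Gm38070 passed the filter on counts through its LPS libraries only, so its p adds no support. Gm37347 lies within the span of Il1r2, on its strand, and shares 0 exonic bases with it. It had 0, 1 and 2 counts in PBS libraries, all under the floor of 3, and 13, 11 and 13 in LPS libraries. Whether the counts of Gm38070 and Gm37347 come from unspliced RNA of the receptor genes was not tested.

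Near the ligand genes, Il1bos, annotated antisense to Il1b, had 0, 1 and 1 counts in PBS and 328, 334 and 347 counts in LPS libraries. This was at least 155-fold higher against the floor of 3 counts in each PBS library. Il1bos passed the filter on counts through its LPS libraries only, so its adjusted p (2.20e-16, edgeR's quasi-likelihood test) adds no support. It shares 25 exonic bases with Il1b. Gm14023, which shares 222 of the 1974 exonic bases of Il1a on the opposite strand, had 8, 6 and 9 counts in PBS and 24, 23 and 39 in LPS libraries (log2 fold change 2.35, SE 0.33). The library kit preserves strand, but the strand setting of the counting was not given in the sources used here, so reads of these overlapping pairs are not certainly assigned. In the interval from Il1f8 to Il1rn, the processed pseudogene Gm13410 had a log2 fold change of 0.26 (adjusted p = 0.175 from edgeR's quasi-likelihood F test) and overlapping groups.

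The other listed genes of the family were mostly low or silent in these cells. Of 11 genes, 5 (Il1f5, Il1f8, Il1f10, Il1rapl1 and Il1rapl2) had 0 counts in all 6 libraries, and 5 were tested. Of these 5, 2 rose and 0 fell, beside 10.5% and 10.4% of all tested genes, with a median log2 fold change of 0.19 against -0.01 over all tested genes. With library size alone 1 rose, Il1rl2 no longer meeting the fold criterion, and the median was -0.21. Il1f9, an older symbol for the gene of the agonist IL-36γ, had 8, 14 and 14 counts in PBS and 58, 63 and 72 in LPS libraries (log2 fold change 2.88, SE 0.24, adjusted p = 7.26e-09 from edgeR's quasi-likelihood F test). Il1f9 passed the filter on counts through its LPS libraries only. Il1rl2, its receptor, had 56, 50 and 45 counts in PBS and 110, 77 and 94 in LPS libraries (log2 fold change 1.36, SE 0.17, adjusted p = 9.55e-07 by the same test). The ligand and the receptor of IL-36 signalling were thus both higher without overlap, at low counts. Il1f6, the gene of IL-36α, was not tested, with 0 counts in each PBS library and 8, 3 and 11 counts in LPS libraries. Il18r1 and Sigirr, an inhibitory receptor of the family, overlapped between groups.

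Of 14 genes that act next to the IL-1 receptor, 2 rose, 1 fell and 11 stayed under the criteria, against 10.5% rising and 10.4% falling over all tested genes, with a median log2 fold change of 0.35. Irak2, a kinase of the MyD88 complex, went from 55.5 ± 0.155 to 222 ± 5.32 normalized CPM (SD, n = 3 each, log2 fold change 2.00, SE 0.03). Peli1, a ubiquitin ligase of this pathway, went from 52.8 ± 2.51 to 223 ± 4.49 normalized CPM (log2 fold change 2.08, SE 0.04). Tab1, which encodes a binding partner of the kinase TAK1, fell from 30.1 ± 2.31 to 11.3 ± 1.08 normalized CPM (log2 fold change -1.41, SE 0.07, adjusted p = 6.01e-12 from edgeR's quasi-likelihood F test). At an adjusted p under 0.05 alone, 10 of the 14 were higher (32.9% of all tested genes), among them Myd88 (0.66), Traf6 (0.61) and Irak3 (0.57), and 4 were lower (34.9% of all tested genes), among them Irak4 (-0.15). With library size alone these counts were 5 and 7, and the median was -0.06. These receptor-proximal genes are shared with Toll-like receptor signalling.

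Of 11 genes that process or release IL-1 family precursors, 2 rose and 0 fell, against 10.5% and 10.4% of all tested genes, with a median log2 fold change of 0.02. Nlrp3, the sensor of the inflammasome that activates caspase-1, went from 46.4 ± 0.568 to 1531 ± 43.3 normalized CPM, a 33.0-fold rise (SD, n = 3 each, log2 fold change 5.04, SE 0.04, adjusted p = 8.61e-24 from edgeR's quasi-likelihood F test). Casp4, which encodes the mouse caspase-11 that senses LPS inside cells, rose from 25.1 ± 1.53 to 110 ± 5.50 normalized CPM (log2 fold change 2.13, SE 0.05). Casp1, the protease that matures IL-1β and IL-18, had a log2 fold change of 0.02 (SE 0.04, adjusted p = 0.742 by the same test), with overlapping groups. The adaptor Pycard had -0.40 and the pore-forming effector Gsdmd -0.10. Nlrc4, another inflammasome component, had 0.84. At an adjusted p under 0.05 alone, 5 of the 11 were higher and 3 lower, beside 32.9% and 34.9% of all tested genes. With library size alone the counts were 3 and 8.

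**Figure D5:**
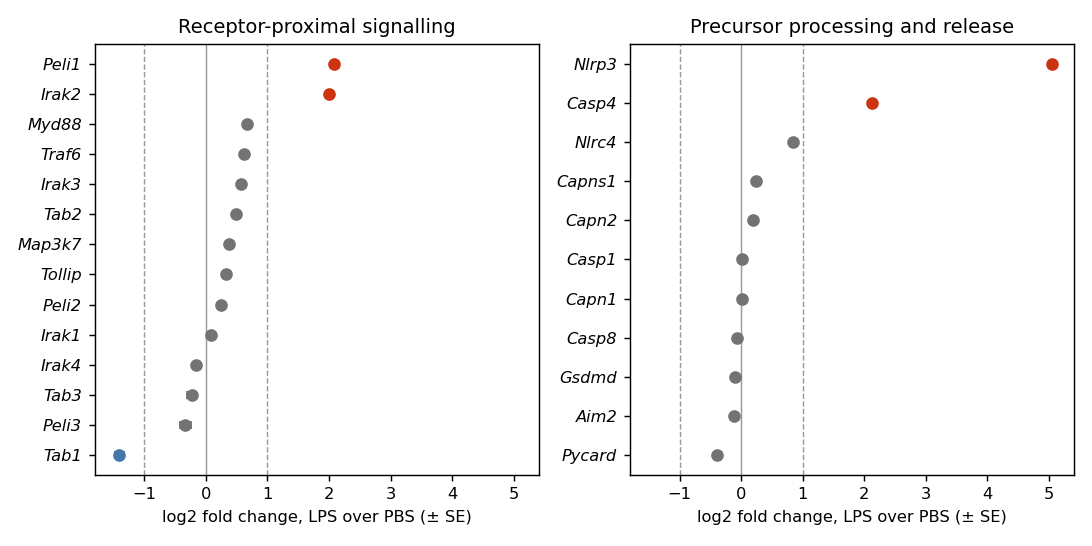
Log2 fold change (points, with SE, often narrower than the point) of 14 receptor-proximal signalling genes on the left and 11 genes of precursor processing and release on the right, with red for genes that rose, blue for the gene that fell, grey for the others and dashed lines at the fold criterion. Peli1 (2.08), Irak2 (2.00), Nlrp3 (5.04) and Casp4 (2.13) lie beyond 1, and Tab1 (-1.41) beyond the lower line.

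For the members with the highest levels after LPS, the tested genes with the most similar levels were sought by Euclidean distance over the 6 libraries, in log2 of normalized CPM per kb plus 0.1. Nearest to Il1a were Ptgs2 at a distance of 1.22, the neutrophil chemokine gene Cxcl1 at 2.63 and the phosphatase gene Dusp5 at 4.03. Nearest to Il1b were Cxcl2, another neutrophil chemokine gene, at 2.56, Cxcl1 at 3.08 and Tnfsf9 at 3.81. Nearest to Il1rn were Bcl2a1d at 0.436, the co-stimulatory receptor gene Cd40 at 0.587 and Gm6377 at 0.629. The neighbours of Il1rn were closer than those of both ligands, whose levels few genes shared. Bcl2a1d belongs to a family of near-identical copies, so its counts are uncertain.

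Markers of 2 other cell types moved as follows, and their part in the values above was not tested. All 5 of 5 dendritic cell markers rose, beside 10.5% of all tested genes (3 with library size alone, 4 with upper quartile scaling). Their summed level was 3.32 to 4.23 normalized CPM in PBS and 10.0 to 11.0 in LPS libraries, with none at 0 throughout. Their PBS counts were low, from 2, 1 and 2 for Xcr1, under the floor of 3 counts, to 86, 91 and 118 for Siglech. Xcr1 and Cd209a passed the filter on counts through their LPS libraries only, so they could be among the 5 only if high there. The 8 lymphoid markers summed to between 1.39 and 1.84 in PBS and between 1.73 and 2.06 in LPS libraries, and 0 of the 2 tested rose by the criteria.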

How the data were processed

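The 6 libraries held total RNA of BMDMs after 1 h, 3 with LPS and 3 with PBS. The authors used a stranded total RNA kit, aligned reads to GRCm38 with HISAT2 2.1.0, handled alignments with SAMtools 1.17 and deposited counts per gene from featureCounts 2.0.0, not normalized. Their annotation release, strand setting and treatment of reads with several matches were not given in the sources used here. Of 55335 identifiers, 55154 were matched to GENCODE M21 symbols by Ensembl identifier with the version removed, and 181 had no symbol. Gene positions follow GENCODE M21 (GRCm38).

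Groups came from the sample labels. Each library held between 37787611 and 41516330 counts. The floor was set at 3 counts in a library and covers counting error only, since reads carried no molecular identifiers. In R 4.3.3 with edgeR 4.0.16, genes were filtered with filterByExpr (15687 kept), scaled by TMM and tested by quasi-likelihood, and p was adjusted by Benjamini-Hochberg across the tested genes. Some named genes passed this filter through their LPS libraries only, and were tested only because they were high there. They are Il33, Il1r2, Il1f9, Il1bos, Gm14023, Gm38070, Gm37347, Gata2, Xcr1 and Cd209a. The criteria were adjusted p under 0.05 with a log2 fold change beyond 1 in either direction. Intervals of log2 fold changes are 95% intervals from the same fit. Levels between genes were compared as normalized CPM per kb of merged exons. Ratios were tested by exact two-sided permutation in scipy 1.17.1.

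Alternatives were DESeq2 1.42.0 (its size factors, and its test), library size alone, upper quartile scaling, no filter beyond 1 count, limma 3.58.1 (voom), the replicate number as a block, leaving out each library and, for ratios, the longest transcript as length. The labels call the replicate number a batch and so pair the libraries, although the study's pairwise comparisons name no such term. Across genes, the deviations from the group means of libraries with 1 number correlated at -0.0139, 0.0822 and 0.0387, and those of differently numbered libraries between -0.0817 and 0.0446. All replicate pairs differed by more than sampling noise. On simulated counts for 15687 genes based on this comparison, edgeR recovered 192 of 200 genes shifted by 2 on the log2 scale, with 0 false calls, DESeq2 188 and voom 192.

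The members and gene lists were chosen with earlier results of these data known. The genes named were the 10 members, the listed family and pathway genes that met the criteria or that a sentence on the list needed, genes inside the family's gene clusters or overlapping a member with at least 10 counts in 1 library, the 3 genes nearest in level to each of Il1a, Il1b and Il1rn, and the neighbours of Il1b in fold change. Because Il1rn lies far from Il1a and Il1b on mouse chromosome 2, the cluster was read as 2 intervals, Il1f8 to Il1rn and Il1a to Il1b. Promoter sequences are from RefSeq (GRCm38.p6).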

Additional observations from a re-analysis of the deposited data

How the results depend on the processing

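The counts of members that rose (6) and fell (0) were the same under every alternative run. With no filter beyond 1 count, 3 of the other family genes rose in place of 2. With library size alone, 1 of them rose (Il1rl2 no longer met the fold criterion), and 2964 of all genes fell in place of 1624. With that scaling Il18bp had a log2 fold change of -0.47 (adjusted p = 7.19e-07), Il1rap -0.16 (adjusted p = 0.0291) and Il1rl1 -0.19 (adjusted p = 0.11). With upper quartile scaling Il18bp had -0.21 (adjusted p = 0.00319) and Il1rap 0.10 (adjusted p = 0.16). The median of all genes moved with both scalings, by -0.40 and -0.14. Leaving out 1 library gave log2 fold changes of 0.11 to 0.31 for Il1rl1, the upper value without LPS replicate 2 (adjusted p = 0.0192, edgeR's quasi-likelihood test). It gave 10.80 to 11.18 for Il1a, 11.75 to 11.79 for Il1b, 5.11 to 5.14 for Il1rn, 3.17 to 3.58 for Il1r1 and 5.97 to 6.45 for Il1r2. A block for the replicate number (the pairing in the labels) changed no call, at 11.77 for Il1b and 0.21 for Il1rl1. Its exact sign-flip test of the ratios cannot give a p below 0.25. Of 300 values, 292 kept their direction and side of the threshold, or stayed within 1.5 times for counts. The ratios among them could not reach a p under 0.05 in any setting, so they could change only in direction. The counts of listed genes at an adjusted p alone, several of which changed with scaling, and the marker lists were not among the 300. Depth limits the PBS values of Il33, Il1r2, Il1a and Il1r1, which rest on at most 44 counts in a library.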
